A study of Mus musculus with 10 samples.

Results

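Hippo effectors and genes known as targets of YAP were examined in mouse liver hepatocytes, as a fixed list of 10 genes: Yap1, Wwtr1, Tead1, Lats2, Ccn1, Ccn2, Amotl2, Axl, Ajuba and Gadd45a. All 10 were found among 55385 gene rows of the EP300 count table and all 10 were among the 14200 genes with enough counts to be tested. The 4 libraries came from mice of the strain given as C57BL/6J 129SV that carried floxed alleles of Ep300, whose product acetylates histones and coactivates transcription. All 4 libraries are from mice exposed for 5 months to DDC, a diet compound that injures hepatocytes and bile ducts, and to cMet, a receptor tyrosine kinase gene on the plasmid pT3-cMet given by hydrodynamic tail vein injection. Mice of the group labelled EP300 KO (genotype EP300-/-, 2 libraries) also received AAV-TBG-Cre, and those of the group labelled EP300 WT (genotype EP300f/f, 2 libraries) AAV-TBG-GFP. The TBG promoter drives expression in hepatocytes, so other liver cells of the KO-labelled mice keep the gene. Ages, sexes and the number of animals per library are not given, and the protocol speaks of pooled sequencing of liver tissue. The titles of these 4 libraries begin with HCC, a short form of hepatocellular carcinoma. The comparison addresses the role of EP300 at the start of liver cancer. In 6 further libraries of the series, mice with cMet ate a normal or a DDC diet, and 0 of 57820 identifiers in each of their tables matched the mouse annotation. No name table for those identifiers was used, so the 10 genes were not analysed here in the diet comparison.

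The Hippo pathway is a kinase chain in which MST kinases with SAV1 activate LATS kinases, which phosphorylate the coactivators YAP and TAZ and keep them out of the nucleus. Unphosphorylated YAP and TAZ enter the nucleus and bind TEAD transcription factors, which carry them to DNA. In the mouse liver this pathway restrains organ size, and active YAP can give hepatocytes features of bile duct cells and drive liver tumours. Several targets of YAP, among them Lats2 and Amotl2, encode proteins that in turn restrain it.

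Of the 10 genes, 3 rose (Gadd45a, Ccn1 and Amotl2) and 4 fell (Ccn2, Wwtr1, Ajuba and Axl) in the KO-labelled libraries (edgeR quasi-likelihood, adjusted p under 0.05). Yap1, Tead1 and Lats2 did not pass. The share of all tested genes that passed was 34.2%, with 16.7% higher and 17.5% lower. Under scaling by library size alone, 1846 genes were higher and 3056 lower in place of 2366 and 2485, while the directions of the 7 genes that passed stayed as given. At least 2-fold changes were found for 2 of the 10 genes, Gadd45a and Ccn2, and for 8.16% of all genes. The groups did not overlap for 8 of the 10 genes, against 66.4% of all genes. The median log2 fold change of the 10 was -0.08, and that of all tested genes -0.01. The former was -0.05 without EP300 KO replicate 1 and -0.15 under scaling by library size alone, which moved that of all genes to -0.07. Without EP300 WT replicate 2, fewer of the 10 genes passed, and the count of all genes that passed was lower too.

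**Figure D1:**
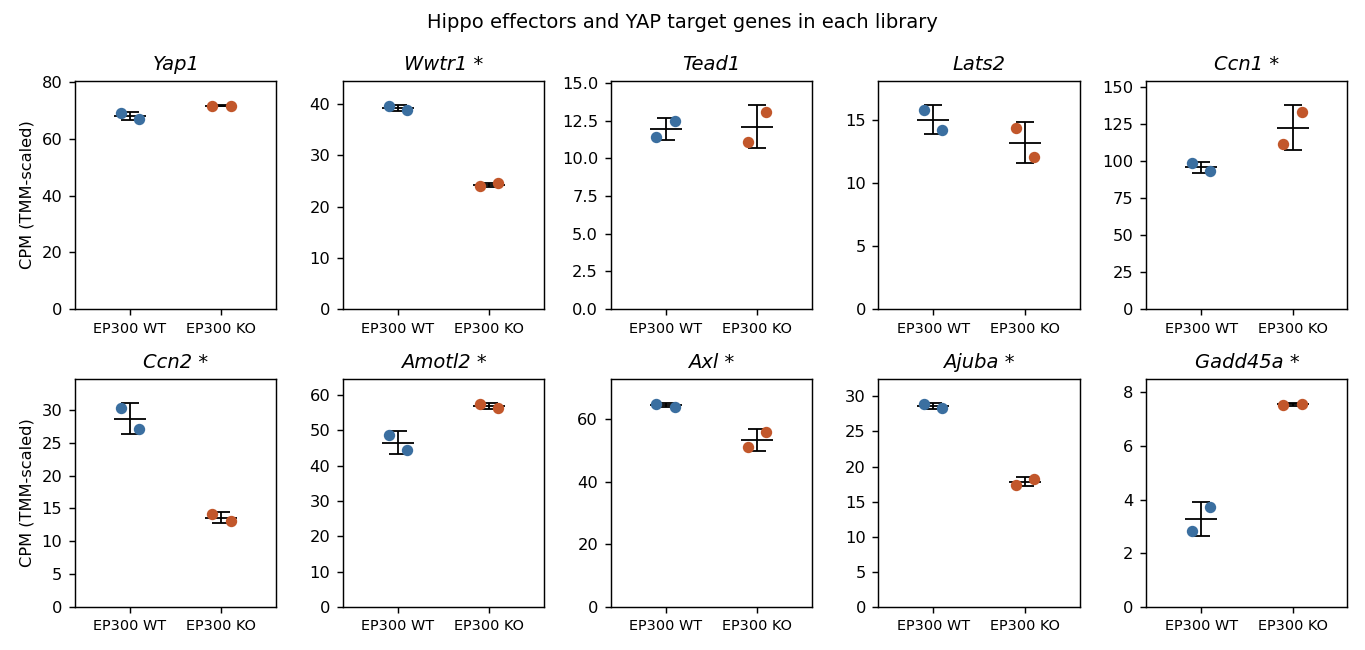
Level of each of the 10 genes in CPM (vertical axes, each from 0) in the 2 EP300 WT and 2 EP300 KO libraries; points are libraries, horizontal bars the mean, whiskers the SD (n = 2), and an asterisk marks an adjusted p below 0.05. Wwtr1, Ccn2, Axl and Ajuba are lower and Ccn1, Amotl2 and Gadd45a higher in both KO-labelled libraries, while Tead1 and Lats2 overlap.

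Total counts were 17709799 to 18831671 per library. Ep300 itself stood at 62.3 and 57.9 CPM (reads of a gene relative to its library's total after TMM scaling) in the WT-labelled libraries and at 73.7 and 72.3 in the KO-labelled ones, a log2 fold change of 0.28 (SE 0.07, adjusted p = 0.00498; adjusted p = 0.128 without EP300 WT replicate 2). Since the targeted gene's count was not reduced under the KO label, every direction here is drawn between libraries as labelled. Counts are per whole gene, so a loss of only a floxed part of Ep300 was not examined. Xist, the X-inactivation RNA, had 3 and 2 counts in the WT-labelled and 2310 and 1411 in the KO-labelled libraries. The labels give no sex. Because the Xist difference follows the EP300 labels in every library, a difference in sex cannot be told apart from the EP300 label for any gene here. Its part in any result was not tested. The summed level of 10 hepatocyte markers was 148195 to 149229 CPM in the WT-labelled and 128179 to 133464 CPM in the KO-labelled libraries. Of all tested genes, 16.7% rose and 17.5% fell, and of these 10 markers 6 rose and 3 fell. Under DESeq2, 5 of the markers rose and 2 fell. The largest changes were rises of Tat, an amino acid enzyme (log2 fold change 0.90), and Cps1, of the urea cycle (0.55), and falls of Apoa1 (-0.67) and Trf (-0.58), both secreted into plasma. Nothing says that the libraries came from separate animals, so p-values measure only the spread between them, which may be technical.

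Promoter windows of RefSeq genes (build GRCm38.p6) were available for 8 of the 10 genes, all but Tead1 and Ccn2. These windows run from 250 bases before to 50 after a transcription start. They are shown because TEAD factors carry YAP and TAZ to DNA, and 5 genes that changed in opposite directions hold the same TEAD core in this window. Each is printed 5′ to 3′ on the strand of its gene, with matches to the TEAD core GGAATG (or CATTCC, the same site on the other strand) and the TATA motif TATAAA in capitals. Ccn1 and Amotl2 rose, and Wwtr1, Axl and Ajuba fell, as detailed further on.
Ccn1, chr3:145649936-145650235, minus strand: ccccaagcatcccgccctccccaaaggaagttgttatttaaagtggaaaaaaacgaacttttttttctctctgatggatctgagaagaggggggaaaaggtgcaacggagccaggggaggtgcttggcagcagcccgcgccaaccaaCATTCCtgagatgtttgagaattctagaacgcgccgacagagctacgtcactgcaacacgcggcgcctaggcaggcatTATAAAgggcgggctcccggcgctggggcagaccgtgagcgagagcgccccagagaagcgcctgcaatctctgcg
Amotl2, chr9:102717554-102717853, plus strand: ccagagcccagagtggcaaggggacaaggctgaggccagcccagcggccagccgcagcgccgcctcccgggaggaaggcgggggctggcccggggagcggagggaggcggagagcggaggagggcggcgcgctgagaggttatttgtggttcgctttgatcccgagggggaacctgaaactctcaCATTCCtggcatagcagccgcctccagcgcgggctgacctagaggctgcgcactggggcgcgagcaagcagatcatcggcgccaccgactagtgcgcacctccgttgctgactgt
Wwtr1, chr3:57575861-57576160, minus strand: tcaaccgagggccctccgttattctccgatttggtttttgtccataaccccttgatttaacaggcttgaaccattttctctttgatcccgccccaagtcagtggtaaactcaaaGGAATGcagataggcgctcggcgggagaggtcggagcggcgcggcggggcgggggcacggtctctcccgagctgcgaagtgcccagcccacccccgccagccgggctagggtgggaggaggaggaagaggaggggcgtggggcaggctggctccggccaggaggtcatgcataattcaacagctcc
Axl, chr7:25788684-25788983, minus strand: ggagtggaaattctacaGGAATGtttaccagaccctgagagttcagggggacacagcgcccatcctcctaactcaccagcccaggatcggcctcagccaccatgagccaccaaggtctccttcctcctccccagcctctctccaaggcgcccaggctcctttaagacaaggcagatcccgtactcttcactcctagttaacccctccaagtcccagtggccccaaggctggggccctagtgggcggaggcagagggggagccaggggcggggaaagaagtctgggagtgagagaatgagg
Ajuba, chr14:54577612-54577911, minus strand: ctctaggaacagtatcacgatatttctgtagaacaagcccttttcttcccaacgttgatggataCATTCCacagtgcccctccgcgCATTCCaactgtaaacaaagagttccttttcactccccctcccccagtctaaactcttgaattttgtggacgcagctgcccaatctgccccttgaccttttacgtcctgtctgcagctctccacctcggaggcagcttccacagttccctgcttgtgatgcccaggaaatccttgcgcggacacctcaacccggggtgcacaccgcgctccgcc
The core was found in at least 1 window of 7 of the 8 genes, and in 16.6% of the 27025 genes with a window. Counted from the start base as 0, the match began at -103 in Ccn1, -65 in Amotl2, -136 in Wwtr1 and -233 in Axl. Ajuba held 2 matches, beginning at -186 and -164. Yap1 held a match at -141 and Lats2 1 in the first of its 2 windows, and the Gadd45a window held none. The TATA motif, searched on the gene's strand alone, was found in Ccn1, at -25, and in 9.77% of all genes. The AP-1 motif TGANTCA (its own reverse complement, where N is any base) and the CArG box were each found in 0 of the 8 genes, and in 8.97% and 1.81% of all genes. No motif match overlapped another in these windows. A match is a string of letters, and no binding was measured.

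**Figure D2:**
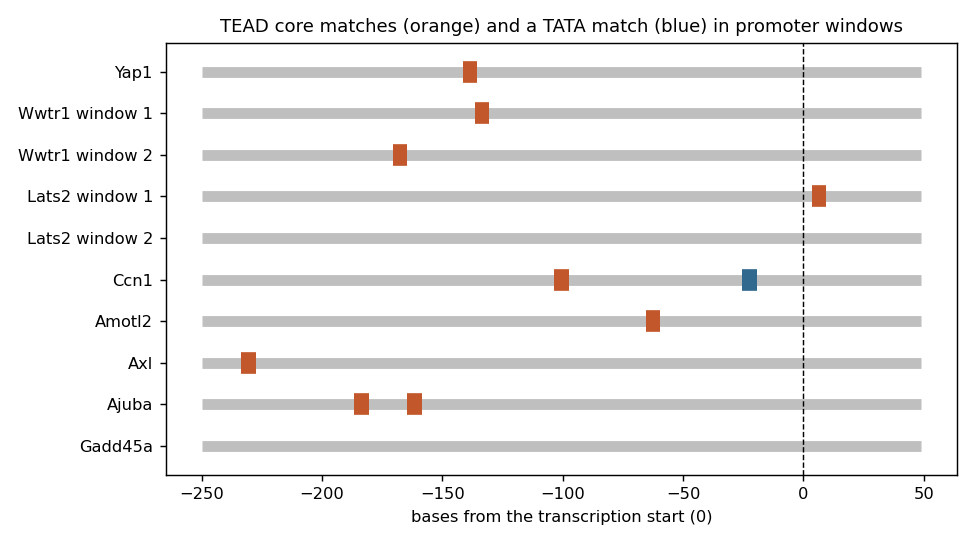
Matches to the TEAD core (orange) and the TATA motif (blue) in the 10 promoter windows of 8 genes, by distance in bases from the transcription start (horizontal axis, 0 is the start). The TEAD core lies before the start in every window that holds it except the first window of Lats2, where it begins 4 bases after.

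Of the coactivators, Wwtr1 fell while Yap1 did not pass. Yap1 (chromosome 9, 7931999 to 8004596, mm10), which encodes YAP, stood at 69.04 and 67.1 CPM in the WT-labelled libraries and at 71.5 and 71.7 in the KO-labelled ones. The KO-labelled libraries lie just above the others, by a log2 fold change of 0.07 (SE 0.07, 95% interval -0.07 to 0.21, adjusted p = 0.433). Wwtr1 (chromosome 3, 57455649 to 57575910), which encodes TAZ, stood at 39.6 and 38.9 CPM in the WT-labelled and at 24.0 and 24.5 in the KO-labelled libraries. Both KO-labelled libraries are well below both others, with a log2 fold change of -0.69 (SE 0.08, adjusted p = 6.86e-06). Per exon base, Yap1 made up 47.2% ± 0.177 of the counts of the pair (SD, n = 2) in the WT-labelled and 60.4% ± 0.373 in the KO-labelled libraries. The ratio of Yap1 to Wwtr1 per exon base was 0.900 and 0.891 in the WT-labelled and 1.54 and 1.51 in the KO-labelled libraries. An exact permutation test of 2 against 2 libraries (two-sided) gave p = 0.333 for this ratio, the smallest it can give.

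Tead1 (chromosome 7, 112679318 to 112906807), a DNA-binding partner of YAP and TAZ, stood at 11.4 and 12.5 CPM in the WT-labelled and at 11.1 and 13.1 in the KO-labelled libraries. The groups overlap, with a log2 fold change of 0.02 (SE 0.13, 95% interval -0.25 to 0.29, adjusted p = 0.925) whose sign turned under library size scaling (-0.05). Among the 4 TEAD genes, Tead3 had the largest share of counts per exon base, 50.3% ± 1.36 (SD, n = 2) in the WT-labelled and 58.5% ± 4.04 in the KO-labelled libraries. Tead1 held 24.1% ± 1.14 and 24.8% ± 3.01. Tead2, the least abundant TEAD gene in the KO-labelled libraries, fell from a mean of 2.01 to 0.953 CPM (log2 fold change -1.08, SE 0.35, adjusted p = 0.0279). It did not pass in 5 of 11 alternatives, among them without EP300 WT replicate 1 (adjusted p = 0.201), EP300 WT replicate 2 (0.129) and EP300 KO replicate 2 (0.189). Tead3 (log2 fold change 0.19, adjusted p = 0.230), Tead4 (-0.36, adjusted p = 0.427) and Vgll4, which competes with YAP for TEAD (0.09, adjusted p = 0.461), did not pass. Vgll1 and Vgll2 had 0 counts in the 4 libraries, and Vgll3 was too low to test.

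**Figure D3:**
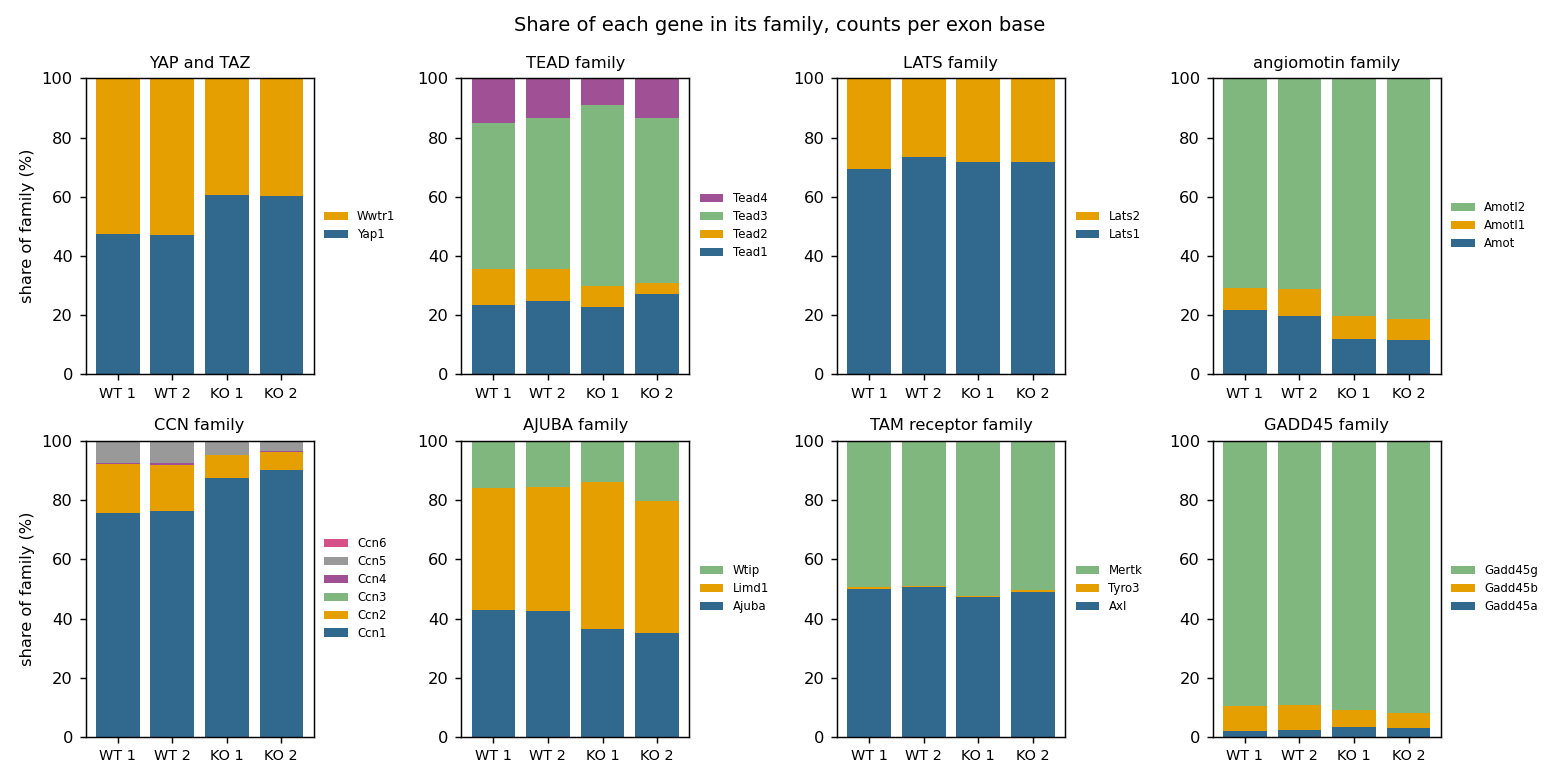
Share of each gene in the counts per exon base of its family (vertical axis, percent) in each of the 4 libraries, for the families that hold the 10 genes. The Yap1, Ccn1 and Amotl2 parts are larger, and the Ajuba part smaller, in both KO-labelled libraries, while the Lats2 part overlaps.

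Of the members that act on YAP and TAZ, Amotl2 rose, Ajuba, an inhibitor of LATS kinases, fell, and Lats2 did not pass. Lats2 (chromosome 14, 57689662 to 57758388), a kinase that phosphorylates YAP, stood at 15.9 and 14.2 CPM in the WT-labelled and at 14.4 and 12.1 in the KO-labelled libraries. The groups overlap (log2 fold change -0.18, SE 0.12, 95% interval -0.44 to 0.07, adjusted p = 0.272), and the value ran from -0.31 without EP300 KO replicate 1 to -0.06 without EP300 KO replicate 2, with -0.10 without EP300 WT replicate 1. Gm49361, an annotated gene on the same strand, shares 42.4% of the exon bases of Lats2 and had 0 counts in the 4 libraries. How reads in the shared bases were counted is not given, so the level of Lats2 is uncertain. Its relative Lats1 had 71.3% ± 2.82 (SD, n = 2) of the counts per exon base of the pair in the WT-labelled and 71.7% ± 0.0637 in the KO-labelled libraries, and did not pass (-0.16, adjusted p = 0.205).

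Ajuba (chromosome 14, 54567472 to 54577558), a LIM-domain protein that binds LATS kinases, stood at 28.9 and 28.3 CPM in the WT-labelled and at 17.4 and 18.3 in the KO-labelled libraries. Both KO-labelled libraries lie below both others, with a log2 fold change of -0.68 (SE 0.09, adjusted p = 2.51e-05). Its relative Limd1 fell less in size, by a log2 fold change of -0.25 (SE 0.07, adjusted p = 0.0159). Limd1 did not pass under DESeq2 (adjusted p = 0.0965) or with no filter on low counts (0.0601). The same held on leaving out EP300 WT replicate 1 or EP300 WT replicate 2. The third gene of the family, Wtip, did not pass (-0.29, adjusted p = 0.300). Ajuba made up 42.8% ± 0.277 (SD, n = 2) of the family per exon base in the WT-labelled and 35.9% ± 0.967 in the KO-labelled libraries.

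Amotl2 (chromosome 9, 102716672 to 102733418), an angiomotin family protein that holds YAP at cell junctions, stood at 48.8 and 44.3 CPM in the WT-labelled and at 57.5 and 56.4 in the KO-labelled libraries. The KO-labelled libraries are higher by a log2 fold change of 0.29 (SE 0.08, adjusted p = 0.00672). The adjusted p was 0.148 on leaving out EP300 WT replicate 2 and 0.0593 with no filter on low counts. Amot, of the same family, went the other way, from a mean of 18.1 to 11.0 CPM (log2 fold change -0.71, SE 0.12, adjusted p = 0.000272), and Amotl1 did not pass (-0.05, adjusted p = 0.833). The ratio of Amotl2 to Amot per exon base was 3.29 and 3.61 in the WT-labelled and 6.74 and 7.05 in the KO-labelled libraries (exact permutation p = 0.333, the smallest possible).

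The CCN genes, secreted matrix proteins widely used as readouts of YAP, moved in opposite directions. Ccn1 (Cyr61; chromosome 3, 145646976 to 145649981) stood at 98.6 and 93.2 CPM in the WT-labelled and at 112 and 133 in the KO-labelled libraries. The KO-labelled libraries are both higher but differ between themselves by more than the others do, with a log2 fold change of 0.35 (SE 0.08, adjusted p = 0.00222). The adjusted p was 0.121 on leaving out EP300 WT replicate 2 and 0.104 with no filter, and the log2 fold change was 0.22 without EP300 KO replicate 2 and 0.49 without EP300 KO replicate 1. Ccn2 (Ctgf; chromosome 10, 24595442 to 24598683) stood at 30.4 and 27.1 CPM in the WT-labelled and at 14.2 and 13.0 in the KO-labelled libraries. Both KO-labelled libraries are below both others, with a fitted level 2.11-fold lower (log2 fold change -1.08, SE 0.10, adjusted p = 6.28e-07). The antisense gene Gm15270 overlaps 23.2% of the exon bases of Ccn2 and had at most 1 count per library. As for Lats2, how reads in the shared bases were counted is not given, so the level of Ccn2 relative to other genes is uncertain.

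The ratio of Ccn1 to Ccn2 per exon base was 4.60 and 4.88 in the WT-labelled and 11.2 and 14.5 in the KO-labelled libraries (exact permutation p = 0.333, the smallest possible). Ccn5, a CCN protein without the domain that ends the others, fell from a mean of 8.82 to 4.96 CPM (log2 fold change -0.83, SE 0.16, adjusted p = 0.000777). Ccn4 fell from 1.52 to 0.634 CPM (-1.25, SE 0.38, adjusted p = 0.0182) and did not pass when any 1 of the 4 libraries was left out (adjusted p = 0.0634 to 0.124). Ccn3 and Ccn6 were too low to test. Ccn1 thus made up 76.0% ± 0.496 (SD, n = 2) of CCN counts per exon base in the WT-labelled and 88.7% ± 1.95 in the KO-labelled libraries.

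Axl (chromosome 7, 25757273 to 25788705), a receptor tyrosine kinase that binds GAS6, stood at 64.8 and 63.9 CPM in the WT-labelled and at 50.9 and 55.8 in the KO-labelled libraries. Both KO-labelled libraries are below both others by a log2 fold change of -0.27 (SE 0.07, adjusted p = 0.00853). The adjusted p was 0.130 on leaving out EP300 WT replicate 1, 0.125 on leaving out EP300 WT replicate 2 and 0.0910 with no filter. Gas6 and Pros1 moved the same way, in a comparison in which 17.5% of all tested genes fell. Gas6 fell from a mean of 51.8 to 42.6 CPM (-0.28, SE 0.09, adjusted p = 0.0250), with -0.43 without EP300 KO replicate 2, -0.13 and no call without EP300 KO replicate 1 (adjusted p = 0.237) and no call without either WT-labelled library (0.171 and 0.267). Pros1, a coagulation regulator that also binds this receptor family, fell from 142 to 108 CPM (-0.40, SE 0.07, adjusted p = 0.000283; 0.0530 without EP300 WT replicate 2). Adam10, a protease that sheds AXL, fell by a log2 fold change of -0.29 (SE 0.08, adjusted p = 0.00814), and not without EP300 WT replicate 1 (0.0614) or EP300 WT replicate 2 (0.195), whereas Adam17 did not pass (-0.14, adjusted p = 0.291). Of these 4 genes, 3 thus passed, and fewer on leaving out EP300 KO replicate 1 or either WT-labelled library. Leaving out either WT-labelled library also lowered the count of all genes that passed. The related receptors Mertk (-0.15, adjusted p = 0.112) and Tyro3 (0.07, adjusted p = 0.932) did not pass. Axl held 50.3% ± 0.349 (SD, n = 2) of the counts per exon base of the 3 receptors in the WT-labelled and 48.2% ± 1.16 in the KO-labelled libraries.

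Gadd45a (chromosome 6, 67035096 to 67037457), a stress protein that binds cell cycle regulators and is also a target of p53, had the largest rise of the 10 genes and the fewest counts in the WT-labelled libraries. It had 54 and 72 counts (2.84 and 3.74 CPM) in the WT-labelled and 130 and 132 counts (7.52 and 7.59 CPM) in the KO-labelled libraries. Both KO-labelled libraries lie above both others, with a log2 fold change of 1.20 (SE 0.19, adjusted p = 0.000140). An antisense gene, E230016M11Rik, overlaps 19.1% of the exon bases of Gadd45a and had 11 and 20 counts in the WT-labelled and 28 and 23 in the KO-labelled libraries. The strand setting of the counts is not given, so reads of the pair cannot be told apart there. Gadd45g, which made up 89.4% ± 0.188 (SD, n = 2) of the family per exon base in the WT-labelled libraries, rose from a mean of 89.2 to 146 CPM (log2 fold change 0.71, SE 0.07, adjusted p = 1.64e-06), and Gadd45b did not pass (0.04, adjusted p = 0.845). Of 14 other p53 targets, 4 passed, beside 34.2% of all tested genes. Of these, 2 rose (Ccng1 by a log2 fold change of 0.61 and Aen by 0.43) and 2 fell (Btg2, at -1.04, and Bbc3, at -0.63). The median log2 fold change of the 14 was -0.06. Single libraries moved these values: Ccng1 was at 0.36 without EP300 KO replicate 1, Bbc3 at -0.41 without EP300 KO replicate 2, and the median at -0.14 and -0.03 without these. Without EP300 WT replicate 2, Ccng1, Bbc3 and Aen did not pass and Btg2 did, while the count of all genes that passed was lower too. Aen did not pass without EP300 WT replicate 1 either. The p53 targets Cdkn1a (-0.20, adjusted p = 0.103) and Mdm2 (-0.01, adjusted p = 0.947), named after their values were seen, did not pass.

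Beyond the members, a published signature of 22 YAP and TAZ targets, which holds 6 of the 10 genes, was also examined. Of its 16 other genes, 14 could be tested, 2 rose and 5 fell, with a median log2 fold change of -0.42 against -0.01 over all tested genes. The share that passed, 7 of 14, stands beside 34.2% of all genes. Under DESeq2, 5 of these genes fell and 0 rose, beside 1614 lower and 1656 higher of all 14200 tested genes. Nt5e, an enzyme that makes adenosine, fell from a mean of 34.5 to 8.59 CPM (log2 fold change -2.004, SE 0.10, adjusted p = 3.79e-10). Igfbp3, which binds insulin-like growth factors, fell from 36.6 to 10.3 CPM (-1.83, SE 0.10, adjusted p = 5.76e-10). Ptpn14, a phosphatase that holds YAP in the cytoplasm, fell from 4.42 to 1.99 CPM (-1.15, SE 0.23, adjusted p = 0.00109). The 2 risers, which were chosen for naming with their values in view, were the coagulation starter F3 (0.79, SE 0.23, adjusted p = 0.0160) and Dock5 (0.34, SE 0.10, adjusted p = 0.0184). Under DESeq2, F3 (adjusted p = 0.105) and Dock5 (0.0894) did not pass. Neither passed without EP300 WT replicate 1 (adjusted p = 0.126 and 0.200) or EP300 WT replicate 2 (0.0849 and 0.111), and Dock5 did not pass without EP300 KO replicate 1 (0.107). Over the whole signature, 12 of 20 tested genes passed. Fewer passed without EP300 WT replicate 2, where the count of all genes that passed was lower too. Ankrd1, a readout of YAP in many cell types, was near the limit of detection at means of 0.731 and 0.577 CPM and did not pass.

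**Figure D4:**
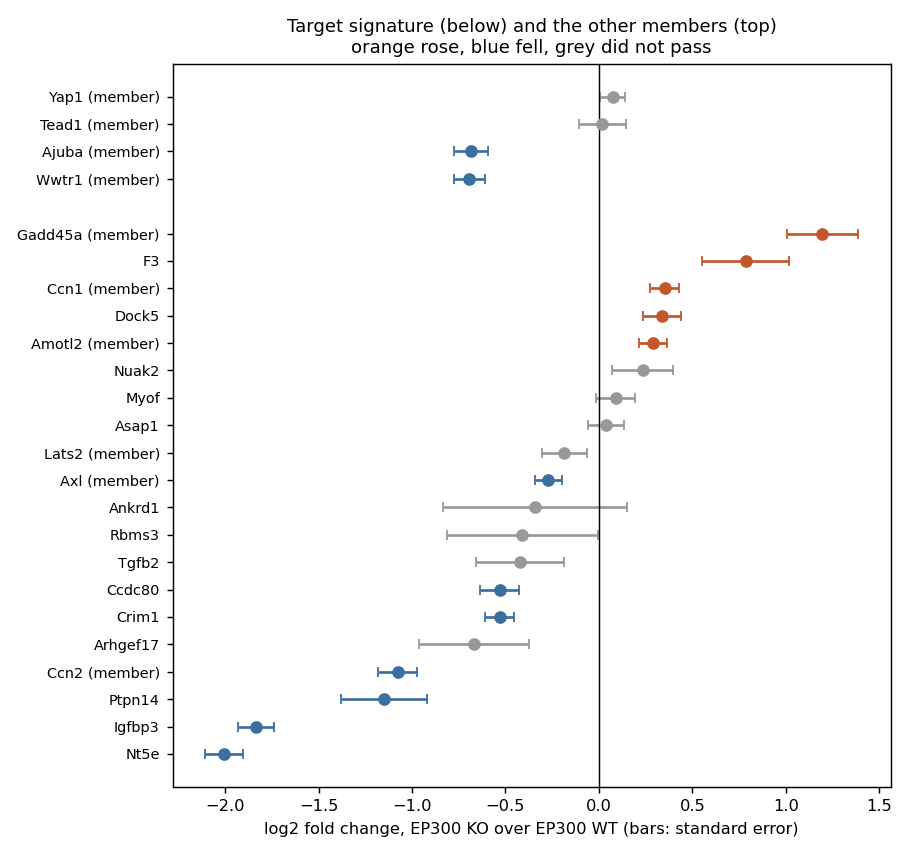
Log2 fold change of EP300 KO over EP300 WT (horizontal axis, bars are standard errors) for the 20 tested genes of the target signature and, at the top, the 4 members outside it. Values run from -2.004 in Nt5e to 1.20 in Gadd45a, with genes that rose in orange, those that fell in blue and those that did not pass in grey.

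Upstream of YAP, 31 kinases, adaptors and other regulators outside the 10 genes were all tested, and 11 fell and 2 rose (median log2 fold change -0.16). This stands beside 17.5% of all tested genes that fell and 16.7% that rose. Frmd6, an adaptor that activates the pathway, fell from a mean of 15.2 to 7.04 CPM (log2 fold change -1.11, SE 0.13, adjusted p = 6.05e-06). Besides Ptpn14 and Amot, given above, Taok3, an upstream kinase, fell from 74.7 to 51.0 CPM (-0.55, SE 0.07, adjusted p = 1.12e-05). The 2 risers, also chosen with their values in view, were Taok2, another such kinase (0.38, SE 0.06, adjusted p = 0.000242), and Nf2, the tumour suppressor merlin (0.27, SE 0.09, adjusted p = 0.0268). Nf2 did not pass without EP300 WT replicate 1 (0.162), EP300 WT replicate 2 (0.195) or EP300 KO replicate 2 (0.162). The core kinase genes Stk3 (-0.33, adjusted p = 0.109) and Stk4 (-0.09, adjusted p = 0.557) and their partner Sav1 (0.13, adjusted p = 0.507), named after their values were seen, did not pass. Fewer regulators than these 13 passed without EP300 WT replicate 1 or EP300 WT replicate 2. The count of all genes that passed was lower there too.

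Of 10 genes reported to rise in mouse livers that overexpress YAP, 7 fell and 1 rose (median log2 fold change -0.66). Of all tested genes, 17.5% fell and 16.7% rose. The list was chosen with earlier results of these data known, so its count and median are a description and not a test of YAP activity. The largest falls were in H19 and Afp, which fetal liver also expresses, and in the transcription factor gene Sox4. H19 had -3.58 (log2 fold change, SE 0.10), Afp -2.77 (SE 0.11) and Sox4 -1.91 (SE 0.18), and another annotated gene covers 54.6% of the exon bases of Sox4. The single rise, named after its values were seen, was in Myc, from a mean of 32.8 to 51.5 CPM (0.65, SE 0.10, adjusted p = 8.84e-05). Birc5, a survival and mitosis protein, fell by a log2 fold change of -0.84 (SE 0.26, adjusted p = 0.0210). Birc5 did not pass without EP300 WT replicate 1 (0.0774), EP300 WT replicate 2 (0.178) or EP300 KO replicate 1 (0.0683). Fewer of the list than 8 passed without EP300 WT replicate 2, where the count of all genes that passed was lower too.

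The labels call the material hepatocytes, while the library titles begin with HCC. The extraction protocol says that liver cells were sorted after perfusion, without naming the gate, and the treatment protocol mentions liver tissue. A sort for hepatocytes would remove most other cells, and how far it did so here is not given. Several members are also expressed by cells other than hepatocytes, among them Axl in macrophages, Ccn1 and Wwtr1 in endothelial cells and Ccn2 in stellate cells, and markers of these cells moved too. In bulk libraries, fewer cells of a type and less RNA per cell cannot be told apart. The marker counts that follow stand beside 16.7% of all tested genes that rose and 17.5% that fell. Of 12 stellate cell and fibroblast markers, 11 were tested and 6 fell, with a summed level of 300 to 307 CPM in the WT-labelled and 191 to 199 in the KO-labelled libraries. The largest falls were in the matrix protein Reln (log2 fold change -1.86), Acta2, an actin of activated stellate cells (-1.85; adjusted p = 0.0539 without EP300 WT replicate 1), Lum (-0.60) and Pdgfrb (-0.60). Of 10 endothelial markers, 7 fell, with sums of 376 to 383 and 290 to 324 CPM, and the largest falls in Vwf (-1.23), Lyve1 (-0.88), Tek (-0.65) and Cdh5 (-0.61). Fewer stellate and fewer endothelial markers passed without EP300 WT replicate 1 or EP300 WT replicate 2. The count of all genes that passed was lower there too. Leaving out EP300 WT replicate 1 ended the calls of Pdgfrb (adjusted p = 0.314) and Tek (0.0563), and leaving out EP300 WT replicate 2 those of Lum (0.170) and Pdgfrb (0.0646). Leaving out EP300 KO replicate 2 also ended that of Pdgfrb (0.109), which was at -0.39 without it and without EP300 WT replicate 1. Of 10 macrophage markers, 3 rose and 2 fell, with sums of 767 to 773 and 709 CPM. Fewer of them also passed without EP300 WT replicate 1 or EP300 WT replicate 2. The scavenger receptor Marco rose by a log2 fold change of 2.59, Timd4 by 0.64 and Cd68 by 0.43, while Cd5l fell (-0.69). Cd68 had an adjusted p of 0.0600 on leaving out EP300 WT replicate 2. Timd4 was lost in 7 of 11 alternatives, with adjusted p values of 0.141 on leaving out EP300 WT replicate 1, 0.275 on leaving out EP300 WT replicate 2 and 0.334, at 0.37, on leaving out EP300 KO replicate 1. Of 10 bile duct markers, 7 were tested and 2 fell (Spp1 and Sox9), with sums of 161 to 163 and 124 to 125 CPM, and the defining keratin Krt19 stood at means of 0.602 and 0.634 CPM. Of 5 mesothelial markers, 1 was tested and did not pass. No marker of these lists was at 0 in all 4 libraries, and the part of these cells in the falls of Wwtr1, Ccn2 and Axl was not tested.

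Ccn1 is also an immediate early gene, switched on by serum and by tissue handling. Of 18 genes of that class, 17 were tested, and 2 rose and 8 fell, beside 16.7% and 17.5% of all tested genes. Their median log2 fold change was -0.13. Their summed level was 3237 to 3265 CPM in the WT-labelled and 2950 to 3190 in the KO-labelled libraries. Fos (-0.02, adjusted p = 0.870) and Jun (-0.05, adjusted p = 0.505), named after their values were seen, did not pass. Dusp1, a phosphatase of this class, rose as Ccn1 did (0.68, SE 0.06, adjusted p = 1.18e-07), and Ier3 (-1.65, SE 0.09), Maff (-0.82, SE 0.09) and Klf6 (-0.68, SE 0.08) fell. Without EP300 WT replicate 1 or EP300 WT replicate 2, fewer of the class passed, and the count of all genes that passed was lower too. The median of the class was -0.23 without EP300 WT replicate 2 and -0.28 without EP300 KO replicate 2.

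Levels between genes were compared per kilobase of exon. In the WT-labelled libraries Ccn1 was the most abundant of the 10, at 47.5 ± 1.87 CPM per kilobase (SD, n = 2), followed by Axl at 12.8 ± 0.127, Ccn2 at 10.04 ± 0.818, Wwtr1 at 8.21 ± 0.108, Ajuba at 7.85 ± 0.114, Amotl2 at 7.41 ± 0.505 and Yap1 at 7.35 ± 0.149. Lats2 at 2.16 ± 0.164, Gadd45a at 1.87 ± 0.360 and Tead1 at 0.881 ± 0.0544 were lowest. Amotl2 and Yap1, and Lats2 and Gadd45a, overlapped as neighbours in this order. Of the 16 paralogues of the 10 genes, 14 were tested. Among them 1 rose (Gadd45g) and 5 fell (Tead2, Ccn4, Ccn5, Amot and Limd1), beside 16.7% and 17.5% of all tested genes. The median log2 fold change of the tested paralogues was -0.21. Under DESeq2, 3 passed, beside 3270 of all 14200 tested genes. Fewer paralogues also passed on leaving out EP300 WT replicate 1 or EP300 WT replicate 2, where the count of all genes that passed was lower too. Their median was -0.13 on leaving out EP300 KO replicate 1. In the KO-labelled libraries Ccn1 (60.6 ± 7.53) and Axl (10.6 ± 0.695) kept their places and were followed by Amotl2 (9.06 ± 0.121) and Yap1 (7.74 ± 0.0114). Ccn2 (4.76 ± 0.279) came after Wwtr1 (5.07 ± 0.0866) and Ajuba (4.89 ± 0.178), and these 3 overlapped as neighbours.

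Over the 4 libraries, the genes of at least 10 CPM whose centred log2 levels lay nearest to those of Wwtr1 were Tubb4b, Ajuba and Prkab1 (Euclidean distance 0.027, 0.030 and 0.033), out of 8097. Their log2 fold changes were -0.68, -0.68 and -0.69. The nearest to Yap1 were Got2, Aqp9 and St7l (0.00886, 0.00945 and 0.0138), none of which passed. With 4 libraries in 2 groups, such likeness reflects mainly the size of the group difference.

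**Figure D5:**
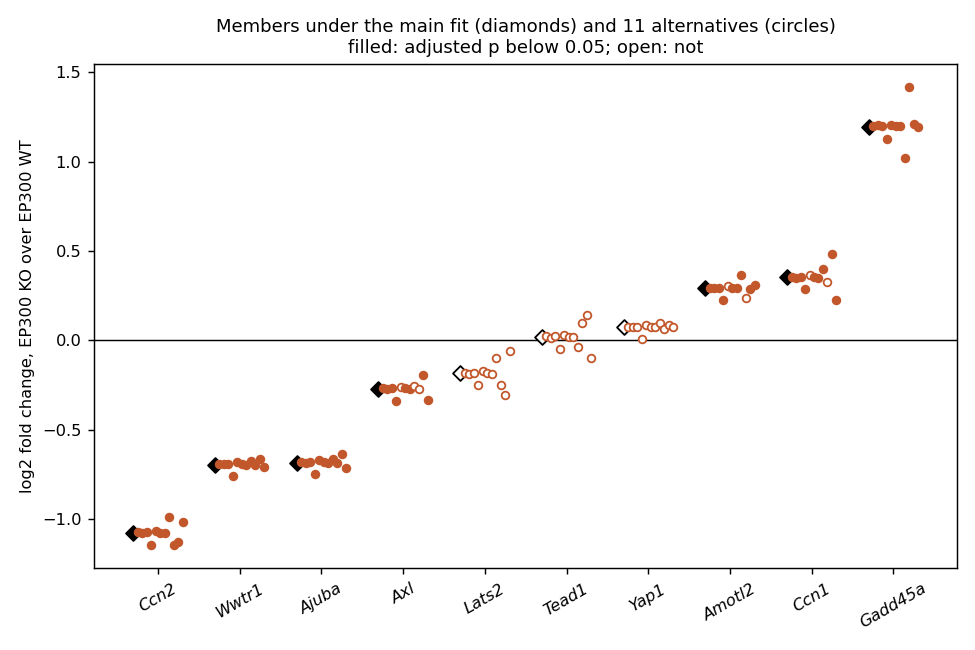
Log2 fold change of EP300 KO over EP300 WT (vertical axis) of the 10 genes under the main fit (diamonds) and under 11 alternatives (circles); filled symbols have an adjusted p below 0.05. Ccn2, Wwtr1, Ajuba and Gadd45a pass in every alternative, while Axl, Amotl2 and Ccn1 have open circles.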

How the data were processed

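RNA libraries of perfused and sorted liver cells were prepared, per the labels, with the TruSeq RNA Sample Prep Kit, a chemistry without strand marking. The authors deposited raw read counts per gene, in 1 table for the EP300 experiment and in 6 per-sample tables for the diet experiment. The submitters' processing notes list DESeq2, HTSeq and STAR as tools, and mm10 as build, without saying what each did. The annotation and the strand setting are not given in the sources used here. Left out were 4 columns of the EP300 table whose names fit no sample. Symbols matched 55144 of 55385 identifiers. Coordinates, exon lengths and exon overlaps come from GENCODE M21 on mm10.

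Counts of the 4 EP300 libraries were fitted with edgeR 4.0.16 in R 4.3.3 (TMM scaling; genes kept by filterByExpr at 10 counts; quasi-likelihood F test on group alone, with 2 residual degrees of freedom), with Benjamini-Hochberg adjustment over the 14200 genes tested and a threshold of 0.05. Each SE was obtained as |log2 fold change|/√F. Common dispersion corresponded to a biological coefficient of variation of 5.47%. The libraries of a label differed beyond sampling noise (chi-square per degree of freedom 2.60 and 5.50). The script was tested on simulated counts. The members and gene lists were chosen with earlier results of these data known. Named from each other list were the 4 largest changes that passed, and the paralogues of members that passed. Alternatives were DESeq2 1.42.0, limma-voom (limma 3.58.1), other scalings and filters, a block on replicate number and fits that leave out single libraries. Without a human name table the diet tables, with 116010 to 358269 counted reads and 98.2% to 99.2% unmapped, were not fitted.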

Additional observations from a re-analysis of the deposited data

How the results depend on the processing

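The count of genes that passed was 2703 without a filter on low counts and ran from 2306 to 5154 with 1 library left out, in place of 4851. The lower counts came without EP300 WT replicate 1 (2602) and EP300 WT replicate 2 (2306). The count of members that passed was 4 without a filter and 4 to 7 with 1 library left out, in place of 7. It was 7 under DESeq2, limma-voom, both other scalings and without the 20 most abundant genes. DESeq2 called 3270 genes. Outside the members, calls lost under DESeq2 included Gas6 (adjusted p = 0.0864), Limd1 (0.0965), Pdgfrb (0.0991) and Nf2 (0.117). Others were Birc5 (0.137), Ccn4 (0.139), Tead2 (0.146) and Timd4 (0.178). The sign turned for 3 genes that did not pass. The log2 fold change of Tead1 was -0.047 under library size scaling, and -0.10 to 0.14 on leaving out single libraries. That of Crebbp, a relative of Ep300, was -0.02, and -0.159 to 0.125 on leaving out single libraries. That of the mouse gene Met was 0.05, with -0.0203 under library size scaling and -0.0193 to 0.124 on leaving out single libraries. The cause was not tested. With the replicate number as a block, 5190 genes and 7 members passed. Same-numbered libraries did not deviate together (correlation -0.00075). With 2 libraries a group, this value cannot show whether the numbers pair the libraries by design. The fits planned for the diet comparison were not run, since no member was matched there. With 2 libraries a group, precision is limited most for Gadd45a, Tead1 and Lats2, the members with the fewest counts.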
